A study of Mus musculus with 10 samples.

Results

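Primary mouse keratinocytes that had been differentiated by calcium were compared with undifferentiated ones on Affymetrix expression arrays. The comparison uses 6 of the 10 arrays of the series, chosen by their titles, of which 4 hold differentiated keratinocytes (replicates 1 to 4) and 2 hold undifferentiated keratinocytes (replicates 1 and 2). The cells of both groups came from the skin of newborn FVB mice and were grown in culture. Undifferentiated cells stayed at 0.05 mM calcium, and differentiated cells were kept at 0.4 mM calcium for 2 days. Neither group carried a transgene or received a drug as far as the labels state. Whether replicates came from separate litters or cultures is not stated, so that the p-values rest on a spread between arrays that may be technical only.

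Keratinocytes are the epithelial cells of the epidermis. In the tissue they divide in the basal layer, then stop dividing, move outward and build a barrier of crosslinked protein and lipid, and a rise in calcium sets off much of this program in culture. Proteases and their inhibitors control how the outer cells are shed, and retinoic acid, a derivative of vitamin A, is known to shift keratinocytes away from cornification.

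Each value is the mean of the deposited log2 values of the probe sets of 1 gene. The array medians lay between 4.64 and 4.75, and a value below the median probe set of its array is called dim here because it is not shown to exceed background, which limits the fold change of that gene. Genes rose or fell, in the words used here, if limma gave an adjusted p under 0.05 over all 18194 genes. All fold changes are differentiated minus undifferentiated on the log2 scale, with the standard error as SE. By this rule 1208 genes (6.64%) rose and 1662 (9.13%) fell, while 665 rose and 770 fell without undifferentiated replicate 1, and 693 rose and 1142 fell without undifferentiated replicate 2. In every fit that leaves out 1 of the 6 arrays, 519 of these genes still rose and 647 still fell. The methods' t-test with Benjamini-Hochberg adjustment called 376 that rose and 488 that fell, and 68 of the calls named below, among them those of Krt79, Il15, Psca, Uhrf1, Dll1 and Notch3, ended under it. The median log2 fold change of all genes was −0.01.

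The labels were checked against marker genes. Of 10 keratinocyte markers none rose and 2 fell, with mean levels of 12.08 and 12.24 in the undifferentiated arrays and 11.52 to 11.95 in the differentiated ones. Krt5, a keratin of basal cells, lay at 13.93 and 13.93 in undifferentiated keratinocytes and at 13.39, 13.05, 12.88 and 13.42 in differentiated ones, and stayed bright in both. Its fall of 0.75 was not called without undifferentiated replicate 1 (−0.74, adjusted p = 0.156) or 2 (−0.75, adjusted p = 0.139) or differentiated replicate 2 (−0.70, adjusted p = 0.0641) or 3 (−0.64, adjusted p = 0.0578). Of 42 measured genes of the cornified envelope and suprabasal keratins 13 rose and 3 fell (6 and 17 rose and 5 and 2 fell in the fits without undifferentiated replicate 1 and 2), and the median was 0.65, against 0.21 without undifferentiated replicate 1 and 0.99 without undifferentiated replicate 2. The mean level of this list was 8.21 and 9.20 in undifferentiated replicates 1 and 2 and 9.20 to 9.44 in the differentiated arrays, so that undifferentiated replicate 2 lay close to the differentiated range. The suprabasal keratin genes Krt1 and Krt10 did not pass, at −1.29 and −1.21 on the log2 scale (adjusted p = 0.0669 and 0.0757), so that these 2 keratins were not higher with differentiation as the label would have it. Both fell without undifferentiated replicate 1 (−2.19, adjusted p = 0.0039 for Krt1 and −2.03, adjusted p = 0.00831 for Krt10).

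Markers of other cell types were read in the same arrays. Of 11 melanocyte markers 1 fell and none rose, and their mean level was 7.20 and 7.39 in undifferentiated and 6.91 to 7.26 in differentiated arrays, so that pigment cell transcripts were present in both. Of 17 fibroblast markers 2 rose, at a mean level of 5.80 and 5.31 and 5.48 to 6.10, and neither of these calls was made without undifferentiated replicate 1 or 2. Of 18 immune markers 2 rose, namely Epcam (1.14), which epithelia also express, and Csf1r (0.82). Of 12 muscle markers 2 rose (Acta1 by 1.82 and Mylpf by 1.17). Of 13 endothelial and 8 adipocyte markers none rose, and 1 and 0 fell. Hair follicle and sebaceous gland markers numbered 22, of which 2 rose and 3 fell, with a median log2 fold change of −0.004. In such bulk samples more cells of a type and more mRNA per cell cannot be told apart.

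The share of genes that rose or fell differed widely between the 38 gene lists described here. It was highest among ribosome biogenesis genes for falls and among serine proteases and their inhibitors for rises. The lists were chosen with earlier results of these data known, so these shares are a description only.

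**Figure D1:**
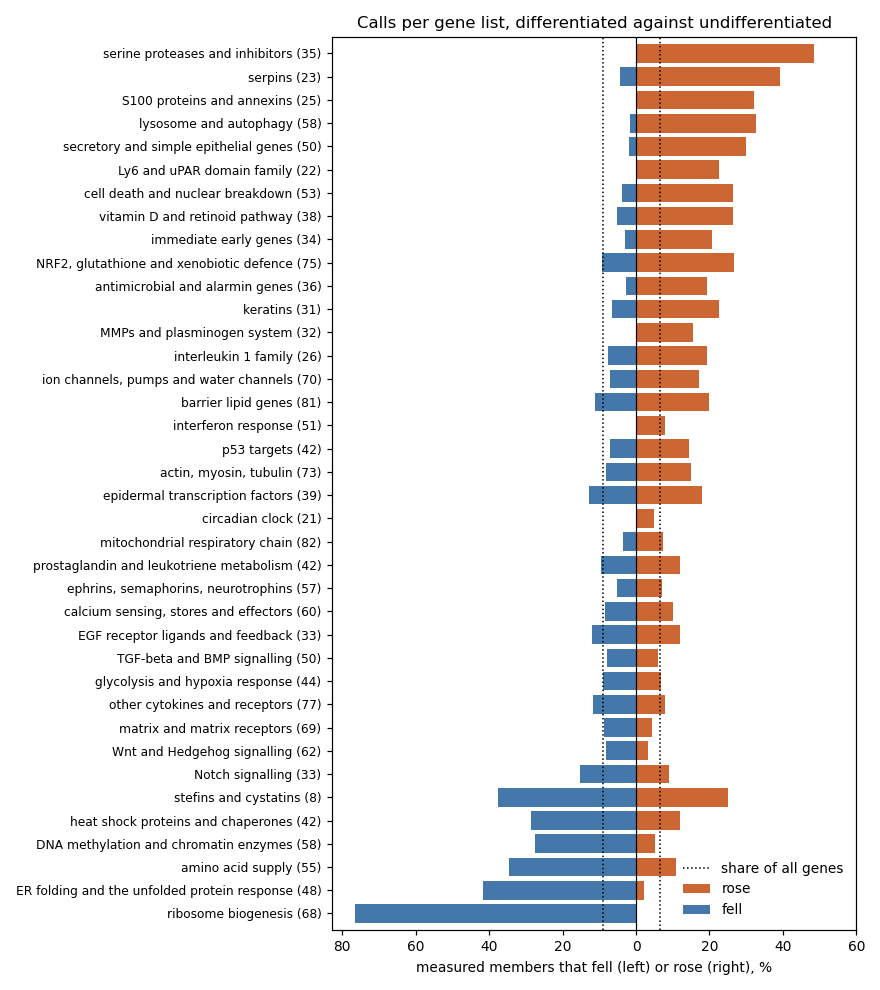
Percent of the measured members of each gene list (number in parentheses) that fell (left, blue) or rose (right, orange) at a limma adjusted p under 0.05, in differentiated against undifferentiated keratinocytes. Dotted lines mark the share among all genes, 9.13% that fell and 6.64% that rose, and the bar of ribosome biogenesis reaches farthest, with 52 of 68 genes that fell.

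Some genes of simple and secretory epithelia rose strongly. Of 50 such genes 15 rose and 1 fell (11 and 12 rose and 1 and 0 fell in the fits without undifferentiated replicate 1 and 2), with a median log2 fold change of 0.12. Krt8 and Krt18 encode the keratin pair of single-layered epithelia. Krt8 lay at 6.05 and 5.37 in the undifferentiated arrays and at 10.79, 10.25, 9.76 and 10.41 in the differentiated arrays, a rise of 4.60 (SE 0.36, adjusted p = 4.86e-05). Krt18 lay at 6.60 and 6.21 and at 11.07, 10.72, 10.30 and 10.87, a rise of 4.34 (SE 0.28, adjusted p = 1.91e-05). The lowest differentiated array was above both undifferentiated arrays for each of these genes by more than the spread within either group. Krt7, another keratin of simple epithelia, rose by 2.93 (SE 0.29, adjusted p = 0.000147). Krt19 rose by 2.63, a call that ended without undifferentiated replicate 1 or 2 (2.56 without undifferentiated replicate 1, adjusted p = 0.0817, and 2.70 without undifferentiated replicate 2, adjusted p = 0.0579). Merkel cells, the touch receptor cells of skin, also hold these keratins. Of 11 markers of Merkel cells and simple epithelia Krt8, Krt18 and Krt19 rose and none fell. The 8 others had log2 fold changes between −0.18 (Sox2) and 0.03. Among them were Atoh1 (0.03) and Krt20 (0.03), which were named after their values were seen. Krt20 and Sox2 were dim in all 6 arrays, and Atoh1 was dim in undifferentiated replicates 1 and 2 and differentiated replicate 2. The values of these 3 genes are therefore not shown to exceed background there. The mean level of the list was 4.35 and 4.38 in undifferentiated and 5.25 to 5.49 in differentiated arrays.

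Clusterin (Clu), a secreted chaperone, lay at 7.27 and 6.67 in undifferentiated and at 11.56, 10.74, 11.25 and 11.95 in differentiated arrays and rose by 4.40 (SE 0.32, adjusted p = 3.07e-05). Scgb1a1, a secreted protein best known from airway club cells, lay at 3.88 and 3.94, which is dim, and at 8.90, 8.75, 8.22 and 8.14. It rose by 4.59 (SE 0.49, adjusted p = 0.00023). Both genes were separated between the groups in all arrays. The membrane mucin Muc15 rose by 2.11, prominin 1 (Prom1) by 2.47 and the epithelial adhesion molecule Epcam by 1.14. Elf5, a transcription factor of glandular epithelia, rose by 2.04 (SE 0.18, adjusted p = 8.73e-05) from dim values of 3.92 and 4.13. Its 2 probe sets disagreed, with log2 fold changes of 0.63 and 3.45.

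Among 31 measured keratins 7 rose and 2 fell (5 and 6 rose and 3 and 1 fell in the fits without undifferentiated replicate 1 and 2). The rises included Krt79, a keratin of hair follicle and gland ducts, at 4.50 and 5.42 in undifferentiated and 8.84, 9.02, 9.46 and 10.96 in differentiated arrays, of which undifferentiated replicate 1 is dim. Krt79 rose by 4.61 (SE 0.58, adjusted p = 0.000541), with no overlap between the groups. Krt80, a keratin of differentiating epithelia, rose by 2.04 (SE 0.22, adjusted p = 0.000217). Krt16, a keratin of activated and dividing keratinocytes, fell by 0.90 (SE 0.15, adjusted p = 0.00263) and stayed bright, at 13.35 and 13.60 and 12.64, 12.29, 12.71 and 12.65.

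Transcription factors of the epidermis moved in both directions. Of 39 listed factors 7 rose and 5 fell (4 and 5 rose and 3 and 4 fell in the fits without undifferentiated replicate 1 and 2). Trp63, which maintains basal cells, lay at 8.32 and 8.69 in undifferentiated and 7.05, 7.27, 6.93 and 7.09 in differentiated arrays. Dlx2, a homeobox factor, fell from 7.31 and 7.21 to 5.80, 5.66, 5.71 and 5.86 and fell by 1.50 (SE 0.10, adjusted p = 2.17e-05). Neither gene overlapped between the groups. Foxn1, a factor of hair and early differentiation, fell by 1.14. Hopx, a homeodomain protein without DNA binding, lay at 10.95 and 11.72 in undifferentiated and from 12.75 to 13.13 in differentiated arrays and rose by 1.62 (SE 0.19, adjusted p = 0.000343). Mxd1, which opposes Myc, rose by 1.41 (SE 0.15, adjusted p = 0.000251), and the forkhead factor Foxq1 rose by 1.73 from values of which undifferentiated replicate 2 was dim. Zfp750, a factor of terminal differentiation, rose by 0.87, a call that ended without undifferentiated replicate 1 (0.65 without undifferentiated replicate 1, adjusted p = 0.218). The regulators Klf4, Grhl3, Ovol1 and Gata3 did not pass, with log2 fold changes of −0.02, −0.17, −0.42 and −0.34 (adjusted p = 0.977, 0.664, 0.234 and 0.451).

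**Figure D2:**
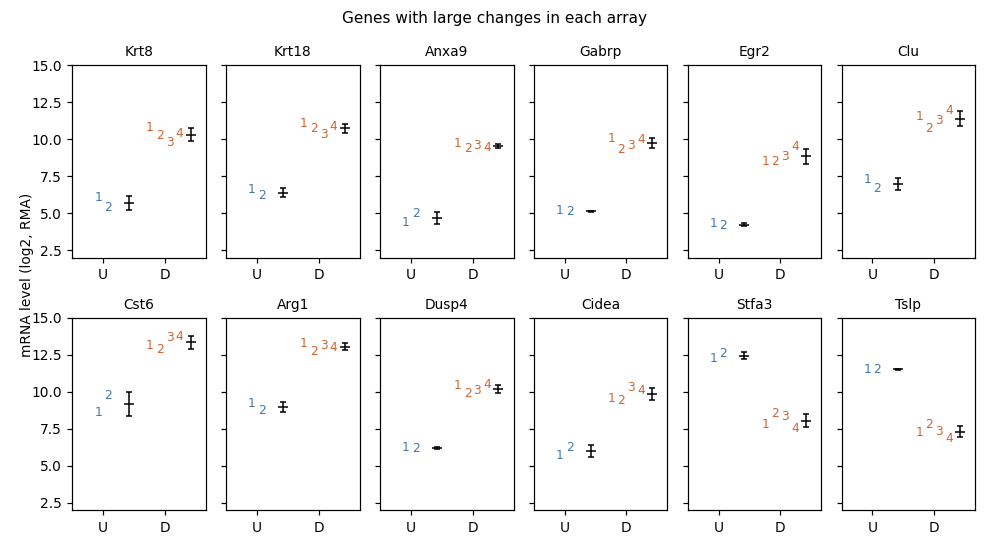
mRNA level (log2, RMA) of 12 genes in each array of undifferentiated (U, n = 2) and differentiated (D, n = 4) keratinocytes. Digits are replicate numbers, and the bars beside them show the mean and SD. The differentiated arrays lie above both undifferentiated arrays for 10 of these genes and below them for Stfa3 and Tslp.

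Serine proteases and their inhibitors rose together in number. Of 35 measured serine proteases and Kazal, Kunitz and WAP type inhibitors 17 rose and none fell, with a median log2 fold change of 1.05 (16 and 17 rose in the fits without undifferentiated replicate 1 and 2), and 15 of the calls were made in every fit that leaves out 1 array. Kallikreins are secreted proteases that cleave the junctions holding corneocytes together. Klk6 lay at 8.48 and 9.84 in the undifferentiated arrays and at 13.20, 12.88, 13.30 and 13.38 in the differentiated ones and rose by 4.04 (SE 0.30, adjusted p = 4.13e-05). Klk7, Klk8, Klk11 and Klk13 were higher as well, with log2 fold changes of 1.95, 1.73, 1.58 and 2.03. The transmembrane protease Tmprss11e lay at 3.66 and 4.13, which is dim, and at 8.32, 8.35, 8.70 and 7.95. It rose by 4.44 (SE 0.26, adjusted p = 1.15e-05). Prss27, a membrane-anchored protease, lay at 4.06 and 4.73, also dim, and at 9.21, 8.87, 7.62 and 8.41, and rose by 4.13 (SE 0.41, adjusted p = 0.000168). No array of one group overlapped the other for Klk6, Tmprss11e or Prss27. Prss8, a membrane protease needed for the barrier, rose by 1.34 (SE 0.15, adjusted p = 0.000326).

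Inhibitors of these proteases rose in the same arrays. Spink5, the Kazal inhibitor of epidermal kallikreins, rose by 1.05 (SE 0.15, adjusted p = 0.00124). Spink12, another Kazal inhibitor, lay at 5.24 and 4.28 and 9.46, 9.49, 10.19 and 9.66 and rose by 4.94 (SE 0.62, adjusted p = 0.000562), with undifferentiated replicate 2 dim. Spint1, a Kunitz inhibitor of membrane proteases, rose by 1.42 (SE 0.18, adjusted p = 0.00063), and the WAP proteins Wfdc5 and Wfdc18 rose by 2.32 and 2.06. Slpi, a WAP inhibitor of leukocyte elastase, rose by 2.71, a call that ended without undifferentiated replicate 1 (2.41 without undifferentiated replicate 1, adjusted p = 0.091).

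Serpins, which trap their protease irreversibly, followed in part. Of 23 measured serpins 9 rose and 1 fell, and 7 rises were called in every fit that leaves out 1 array, while the median over the list was 0.10. Serpinb11 lay at 6.74 and 7.80 and 11.12, 10.88, 11.05 and 10.66 and rose by 3.66 (SE 0.30, adjusted p = 6.73e-05), and Serpinb7 lay at 5.78 and 5.98 and 9.54, 9.13, 9.61 and 8.79 and rose by 3.39 (SE 0.35, adjusted p = 0.000183). Neither gene overlapped between the groups. Serpinb8 rose by 2.26 and Serpina11 by 3.51. Serpinb5 (maspin) was the serpin that fell, by 0.69, and its call ended without undifferentiated replicate 2 (−0.58 without undifferentiated replicate 2, adjusted p = 0.0682). Of 32 measured metalloproteinases, their inhibitors and genes of the plasminogen system 5 rose and none fell (4 and 1 rose in the fits without undifferentiated replicate 1 and 2), of which 1 (Adamts5, 1.06, from dim values) was called in every fit that leaves out 1 array. Mmp9, a gelatinase, rose by 2.18, a call that ended without undifferentiated replicate 2 (1.72 without undifferentiated replicate 2, adjusted p = 0.064).

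Inhibitors of cysteine proteases went opposite ways. Of 8 measured stefins and cystatins 2 rose and 3 fell (2 and 2 rose and 3 and 2 fell in the fits without undifferentiated replicate 1 and 2). Cystatin M (Cst6), which inhibits cathepsins and legumain in the upper epidermis, lay at 8.59 and 9.72 in undifferentiated and 13.12, 12.84, 13.69 and 13.75 in differentiated arrays and rose by 4.20 (SE 0.32, adjusted p = 4.13e-05). Stefin B (Cstb) rose by 1.01 (SE 0.16, adjusted p = 0.00176). Stfa3, a stefin A gene, lay at 12.28 and 12.60 in undifferentiated and at 7.82, 8.51, 8.32 and 7.52 in differentiated arrays, so that its level was high in the first and moderate in the second, and it fell by 4.39 (SE 0.45, adjusted p = 0.00018). Stfa2l1 fell by 3.41 (SE 0.34, adjusted p = 0.000166) to values that were dim in all 4 differentiated arrays (3.44, 3.45, 3.35 and 3.35). Csta1, another gene of the family, fell by 2.07, a call that ended without undifferentiated replicate 2 (−1.75 without undifferentiated replicate 2, adjusted p = 0.0871). These 3 genes are neighbours in the mouse genome and close copies of each other, so that probes of one may also detect mRNA of another.

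**Figure D3:**
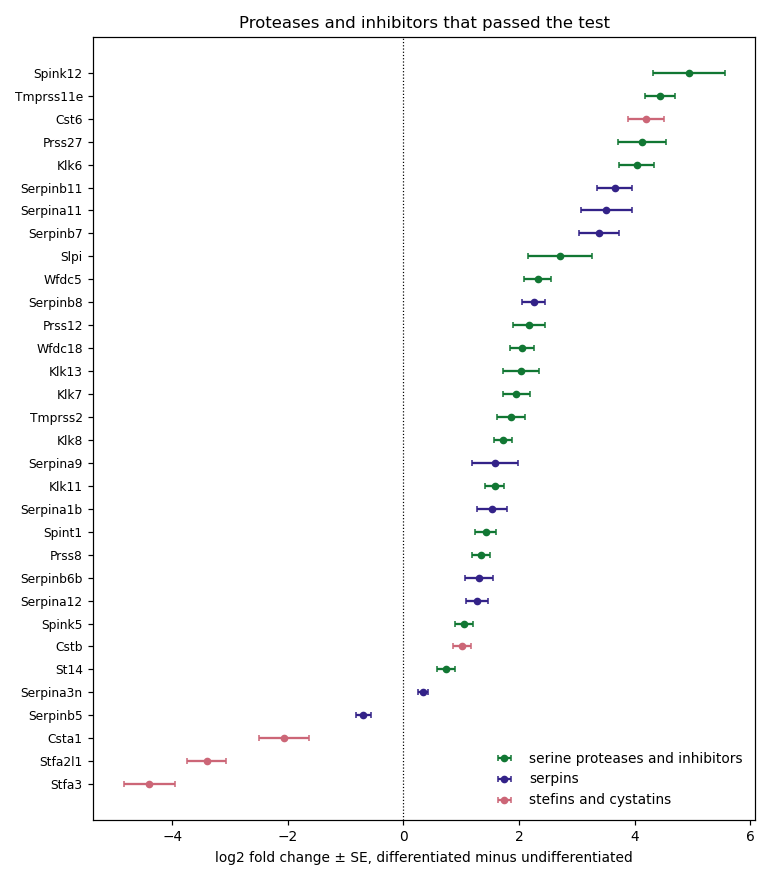
Log2 fold change (differentiated minus undifferentiated, points) with its standard error (bars) for every gene that passed the test among serine proteases and their inhibitors (green), serpins (purple) and stefins and cystatins (pink). All 17 green points lie above 0, and Stfa3, Stfa2l1 and Csta1 are the lowest points of all.

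Several genes of the vitamin A pathway rose, among them enzymes that make retinoic acid. Of 38 measured genes of the retinoid and vitamin D pathways 10 rose and 2 fell (7 and 7 rose and 0 and 0 fell in the fits without undifferentiated replicate 1 and 2), with a median log2 fold change of 0.04. Retinol is oxidized to retinal by Rdh10 and then to retinoic acid by enzymes such as Aldh1a3, while Dhrs3 turns retinal back into retinol. Rdh10 lay at 7.12 and 7.16 in undifferentiated and 9.02, 8.79, 9.52 and 9.20 in differentiated arrays and rose by 1.99 (SE 0.23, adjusted p = 0.000313). Aldh1a3 lay at 5.60 and 5.56 and 9.55, 9.22, 9.02 and 9.59 and rose by 3.77 (SE 0.24, adjusted p = 1.91e-05). Dhrs3 lay at 5.28 and 5.19 and 8.89, 8.48, 8.13 and 8.86 and rose by 3.36 (SE 0.35, adjusted p = 0.000204). In each of these enzymes all 4 differentiated arrays lay above both undifferentiated arrays. Crabp2, the cytoplasmic protein that carries retinoic acid to its nuclear receptor, lay at 9.36 and 9.53 and 12.01, 11.89, 11.75 and 12.004 and rose by 2.47 (SE 0.13, adjusted p = 5.57e-06). Rarres1, a gene named for its response to retinoids, rose by 2.55 (SE 0.34, adjusted p = 0.000697).

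Calls at the entry and at the receptors of this route ended in fits without 1 undifferentiated array, while the fold changes stayed similar. Stra6, a membrane receptor for retinol uptake, rose by 2.19, which ended without undifferentiated replicate 2 (2.08 without undifferentiated replicate 2, adjusted p = 0.0592). Rbp2, a cellular retinol binding protein, rose by 1.39, which ended without undifferentiated replicate 1 (1.29 without undifferentiated replicate 1, adjusted p = 0.0762). Rarb, a retinoic acid receptor that retinoic acid itself induces, rose by 1.19 from dim values of 4.02 and 3.91. Its differentiated arrays lay at 5.56, 4.95, 4.71 and 5.38, of which replicate 3 was dim. The call of Rarb ended without undifferentiated replicate 2 (1.13 in that fit). The vitamin D receptor Vdr rose by 1.01 and did not pass without undifferentiated replicate 1 (1.12, adjusted p = 0.0687) or 2 (0.90, adjusted p = 0.124). Cyp24a1, the vitamin D hydroxylase that vitamin D induces, was dim in all 6 arrays and had a log2 fold change of 0.04 (SE 0.10, adjusted p = 0.905).

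**Figure D4:**
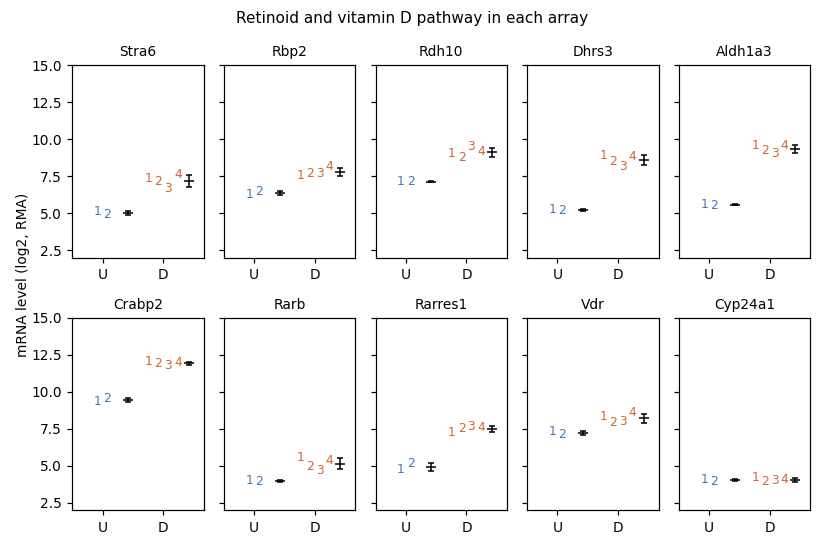
mRNA level (log2, RMA) of 10 genes of the retinoid and vitamin D pathways in each array of undifferentiated (U, n = 2) and differentiated (D, n = 4) keratinocytes, with replicate numbers as symbols and the mean and SD beside them. Rdh10, Dhrs3, Aldh1a3, Crabp2 and Rarres1 are separated between the groups, and Cyp24a1 lies at 4.07 and 3.96 in undifferentiated and 3.91 to 4.21 in differentiated arrays.

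Ribosome biogenesis was the list with the highest share of falls. Of 68 measured genes for the synthesis and processing of ribosomal RNA 52 fell and none rose, with a median log2 fold change of −0.74, against 9.13% of all genes that fell. Without undifferentiated replicate 1 35 of them fell, 45 without undifferentiated replicate 2, and 33 fell in every fit that leaves out 1 array. Dyskerin (Dkc1), which modifies uridines in ribosomal RNA, lay at 9.39 and 9.43 in undifferentiated and 8.08, 8.01, 7.65 and 7.57 in differentiated arrays and fell by 1.59 (SE 0.15, adjusted p = 0.00011). Nop56, a scaffold protein of the particles that methylate ribosomal RNA, lay at 10.66 and 10.72 and 9.26, 9.38, 9.36 and 9.23 and fell by 1.39 (SE 0.10, adjusted p = 2.76e-05). In both genes every differentiated array lay below both undifferentiated arrays. Nucleophosmin (Npm1), an abundant nucleolar protein, fell by 0.82 (SE 0.09, adjusted p = 0.000197), Wdr43 by 1.04 and Rcl1 by 1.15. Myc, which drives many of these genes in dividing cells, had a log2 fold change of −0.74 (SE 0.32, adjusted p = 0.169). The falls of single genes were small to moderate, and the largest in the list was that of Dkc1.

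Genes that supply amino acids to protein synthesis fell in part. Of 55 measured genes of amino acid supply and the integrated stress response 19 fell and 6 rose, with a median of −0.26 (4 and 5 rose and 11 and 12 fell in the fits without undifferentiated replicate 1 and 2). Phgdh, the first enzyme of serine synthesis, lay at 11.17 and 11.24 and 9.90, 9.90, 9.90 and 9.89 and fell by 1.31 (SE 0.10, adjusted p = 5.65e-05). Shmt1, which moves one-carbon units from serine to folate, fell by 1.34 (SE 0.13, adjusted p = 0.000155). Odc1 and Srm, the enzymes that start polyamine synthesis and make spermidine, fell by 1.62 and 1.58. Atf4, the factor that controls many of these genes, did not pass (−0.23 (SE 0.13, adjusted p = 0.341)). The largest change of the list was a rise. Arginase 1 (Arg1), which splits arginine into ornithine and urea, lay at 9.20 and 8.73 in undifferentiated and 13.28, 12.74, 13.11 and 13.01 in differentiated arrays and rose by 4.07 (SE 0.17, adjusted p = 1.35e-06). Its groups did not overlap. The amino acid transporter Slc6a14 rose by 3.10 (SE 0.16, adjusted p = 5.14e-06) and Nupr1, a stress-induced chromatin protein, by 2.49 (SE 0.31, adjusted p = 0.000503).

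Some chaperones of the endoplasmic reticulum (ER) and the cytosol fell, and many of these calls ended in fits without 1 undifferentiated array. Of 48 measured genes of ER folding and the unfolded protein response 20 fell and 1 rose, with a median of −0.38. Only 3 fell without undifferentiated replicate 1 (median −0.28), while 17 fell without undifferentiated replicate 2. Pdia6, a protein disulfide isomerase, fell by 0.77 (SE 0.12, adjusted p = 0.00196) and Creld2, a protein induced by ER stress, by 1.03 (SE 0.17, adjusted p = 0.00231). These are the members called in every fit that leaves out 1 array. The 2 probe sets of Pdia6 had log2 fold changes of −1.37 and −0.17. Hspa5 (BiP), the main ER chaperone, fell by 0.60, which ended without undifferentiated replicate 2 (−0.51 without undifferentiated replicate 2, adjusted p = 0.0872). Of 42 measured cytosolic and mitochondrial chaperones 12 fell and 5 rose (1 and 1 rose and 5 and 5 fell in the fits without undifferentiated replicate 1 and 2). Hspa8, the constitutive Hsp70, fell by 0.71 (SE 0.10, adjusted p = 0.000987), a call that was not made with the brightest probe set alone (−0.33, adjusted p = 0.291), and Cct6a, a subunit of the chaperonin that folds actin and tubulin, fell by 0.68 (SE 0.10, adjusted p = 0.00172).

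Some lysosome and autophagy genes rose. Of 58 measured members 19 rose, 1 fell and 38 did not pass, with a median of 0.18 (9 and 11 rose and 0 and 1 fell in the fits without undifferentiated replicate 1 and 2). Atp6v1c2, a subunit of the proton pump found in some epithelia only, lay at 7.09 and 7.26 and 10.25, 10.42, 10.97 and 10.84 and rose by 3.44 (SE 0.21, adjusted p = 1.38e-05). The autophagosome proteins Gabarapl1, Gabarapl2, Gabarap and Map1lc3a, which are lipid-linked to the forming membrane, rose by 1.24, 1.08, 0.69 and 0.81, each called in every fit that leaves out 1 array. The ubiquitous pump subunit Atp6v0b rose by 0.96 (SE 0.17, adjusted p = 0.00348).

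**Figure D5:**
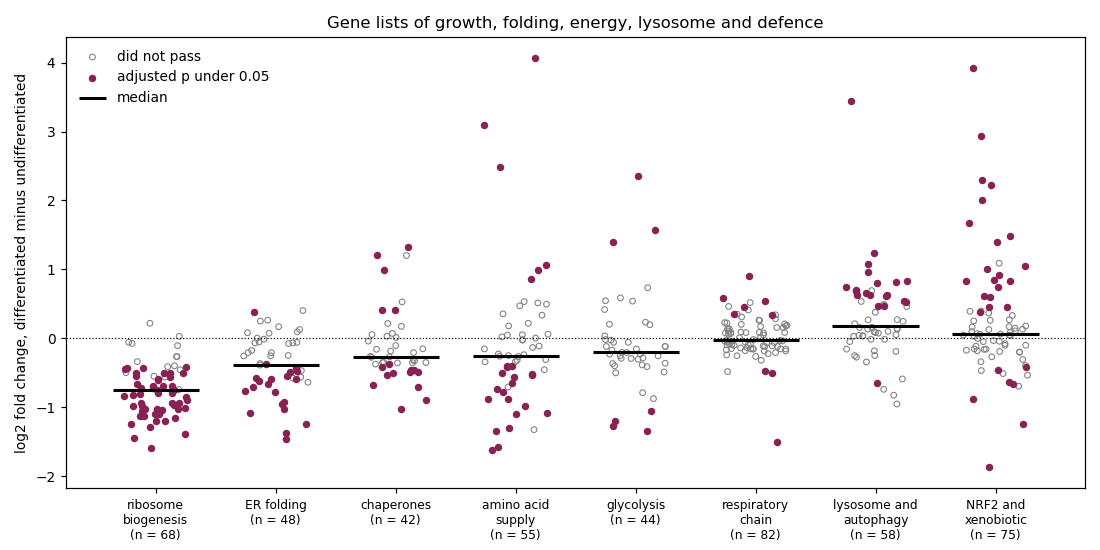
Log2 fold change (differentiated minus undifferentiated) of every measured member of 8 gene lists, filled where the limma adjusted p is under 0.05, with the median of each list as a bar. Ribosome biogenesis genes centre on −0.74 and ER folding genes on −0.38, while the lysosome list centres on 0.18.

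Genes of energy metabolism moved little as groups. Of the respiratory chain list 7.32% rose and 3.66% fell, and of the glycolysis list 6.82% and 9.09%. Among all genes these shares were 6.64% and 9.13%. Of 82 measured genes of the respiratory chain and its regulators 6 rose and 3 fell (0 and 0 rose and 1 and 2 fell in the fits without undifferentiated replicate 1 and 2), with a median of −0.02, and 1 of these calls was made in every fit that leaves out 1 array, the fall of the coactivator Ppargc1b (1.50 (SE 0.15, adjusted p = 0.00018)) to dim values. Of 44 measured genes of glycolysis and the hypoxia response 3 rose and 4 fell (3 and 3 rose and 1 and 1 fell in the fits without undifferentiated replicate 1 and 2), with a median of −0.21. Pfkfb4, which controls the rate of glycolysis through fructose 2,6-bisphosphate, rose by 1.57 (SE 0.18, adjusted p = 0.00034), and aldolase C (Aldoc) rose by 1.40 (SE 0.19, adjusted p = 0.000749). The glucose transporter Slc2a3 rose by 2.35 from 4.82 and 4.6958, while Slc2a1, the main glucose transporter of keratinocytes, had a log2 fold change of −0.88 (SE 0.28, adjusted p = 0.0604). The rise of Slc2a3 was not called without probe sets that match several transcripts (1.35, adjusted p = 0.12), and Slc2a1 fell under 6 alternatives, including the fit of the 6 compared arrays alone.

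Some genes of defence against oxidants and foreign compounds rose. Of 75 measured genes 20 rose (26.7%) and 7 fell (9.33%, near the 9.13% of all genes) (10 and 14 rose and 2 and 6 fell in the fits without undifferentiated replicate 1 and 2). Nqo1, a quinone reductase and typical NRF2 target, lay at 6.10 and 6.09 and 8.23, 8.15, 8.17 and 7.86 and rose by 2.0028 (SE 0.12, adjusted p = 1.29e-05). The aryl hydrocarbon receptor Ahr lay at 7.19 and 6.99 and 9.56, 8.97, 9.38 and 9.67 and rose by 2.30 (SE 0.24, adjusted p = 0.000204). Ferroportin (Slc40a1), which exports iron, rose by 2.93 (SE 0.29, adjusted p = 0.000164), and the aldehyde dehydrogenase Aldh3b2 by 2.23 (SE 0.17, adjusted p = 4.08e-05). The groups did not overlap for these genes. Gpx1, a glutathione peroxidase, fell by 0.88 (SE 0.09, adjusted p = 0.000197) and Mgst2, a microsomal glutathione transferase, by 1.88 (SE 0.24, adjusted p = 0.00065). The largest rise of the list was that of Akr1c18, a steroid reductase, by 3.92 (SE 0.91, adjusted p = 0.0148). It lay at 7.87 and 7.53 in undifferentiated and 11.66, 11.70, 11.58 and 11.52 in differentiated arrays. The SD was 0.23 and 0.08 within these groups, while the SE takes in the spread of all 10 arrays. The call ended without undifferentiated replicate 1 or 2, with log2 fold changes of 4.08 and 3.75.

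Some lipid genes other than those of cholesterol synthesis rose. Of 81 measured genes of fatty acids, ceramides and the lipid barrier 16 rose (19.8%) and 9 fell (11.1%, near the 9.13% of all genes) (9 and 9 rose and 4 and 2 fell in the fits without undifferentiated replicate 1 and 2). Scd1, which puts a double bond into saturated fatty acids, lay at 8.61 and 7.67 and 11.28, 10.58, 10.63 and 10.89 and rose by 2.70 (SE 0.40, adjusted p = 0.00137). The lipid droplet coat protein Plin2 rose by 1.30 (SE 0.17, adjusted p = 0.000714), the phospholipase Liph by 2.19 from dim values, and the fatty acid transporter Slc27a4 by 0.98. The 2 probe sets of Liph disagreed, with log2 fold changes of 0.80 and 3.59. Named genes of the route to the bound ceramides of the barrier differed. Alox12b, the first lipoxygenase of that route, lay at 5.22 and 5.34 and fell to dim values of 4.17, 4.34, 3.92 and 3.78 and fell by 1.23 (SE 0.20, adjusted p = 0.00197). Acer1, an epidermal ceramidase, fell by 1.25 (SE 0.17, adjusted p = 0.000909). Aloxe3, the next lipoxygenase, and Abca12, the transporter that loads lipid into secretory granules, did not pass (−0.40 and −0.63, adjusted p = 0.195 and 0.403).

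Of 42 measured genes of prostaglandin and leukotriene metabolism 5 rose and 4 fell (5 and 4 rose and 3 and 2 fell in the fits without undifferentiated replicate 1 and 2). Ptgr1, which inactivates prostaglandins and leukotriene B4, lay at 10.53 and 10.81 and 13.10, 12.63, 13.14 and 13.04 and rose by 2.31 (SE 0.16, adjusted p = 2.69e-05). Pla2g7, which hydrolyses platelet-activating factor, rose by 2.25 (SE 0.22, adjusted p = 0.000141), the epoxide hydrolase Ephx3, which also acts after the lipoxygenases in the route to bound ceramides, by 1.77 and the prostaglandin E receptor Ptger4 by 1.73. Ltb4r1, the leukotriene B4 receptor, fell by 1.21 (SE 0.13, adjusted p = 0.00027) and Abcc4, a transporter that can export prostaglandins, by 1.48. Ptgs2, the inducible cyclooxygenase, did not pass (−0.58 (SE 0.24, adjusted p = 0.146)). The shares of this list were 11.9% that rose and 9.52% that fell, against 6.64% and 9.13% of all genes.

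Signalling genes changed as single members rather than as whole pathways. Among all genes 6.64% rose and 9.13% fell. The shares were 9.09% and 15.2% for Notch signalling and 12.1% and 12.1% for the EGF receptor list. They were 3.23% and 8.06% for Wnt and Hedgehog signalling and 6.0% and 8.0% for TGF-beta and BMP signalling. Of 33 measured genes of Notch signalling 3 rose and 5 fell (3 and 2 rose and 2 and 2 fell in the fits without undifferentiated replicate 1 and 2). The Notch target and feedback inhibitor Nrarp lay at 7.55 and 7.58 and 10.32, 9.74, 10.70 and 10.53 and rose by 2.76 (SE 0.22, adjusted p = 6.03e-05), and the receptor Notch3 rose by 1.48 (SE 0.25, adjusted p = 0.00271). The ligand Dll1 fell by 1.64, and the ligand Jag2 fell by 1.0027. Notch1, the main receptor of the epidermis, fell by 0.75, a call that ended in each fit without undifferentiated replicate 1 (−0.63, adjusted p = 0.222) or 2 (−0.87, adjusted p = 0.0734) or differentiated replicate 1 (−0.76, adjusted p = 0.0521), 2 (−0.66, adjusted p = 0.0558) or 3 (−0.71, adjusted p = 0.0604). Hes1, another target, had a log2 fold change of 0.48 (SE 0.24, adjusted p = 0.258).

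Of 33 measured ligands, receptors and feedback genes of the EGF receptor 4 rose and 4 fell (2 and 2 rose and 3 and 3 fell in the fits without undifferentiated replicate 1 and 2). Dusp4, a phosphatase that inactivates MAP kinases, lay at 6.26 and 6.16 and 10.39, 9.86, 10.05 and 10.47 and rose by 3.98 (SE 0.19, adjusted p = 3.65e-06), with a gap of more than 3 between the groups. Dusp5, another such phosphatase, rose by 1.37 (SE 0.12, adjusted p = 0.000101). The ligand Nrg1 fell by 1.45 (SE 0.19, adjusted p = 0.000626), and Hbegf had a log2 fold change of −0.08 (SE 0.30, adjusted p = 0.939). Of 62 measured genes of Wnt and Hedgehog signalling 2 rose and 5 fell (0 and 0 rose and 3 and 4 fell in the fits without undifferentiated replicate 1 and 2). The Hedgehog effector Gli2 fell by 1.57 (SE 0.14, adjusted p = 0.00011), and Wnt4, a ligand of basal keratinocytes, lay at 11.09 and 10.94 and 9.66, 9.16, 8.63 and 9.07 and fell by 1.89 (SE 0.23, adjusted p = 0.000432). Of 50 measured genes of TGF-beta and BMP signalling 3 rose and 4 fell (2 and 0 rose and 1 and 2 fell in the fits without undifferentiated replicate 1 and 2), of which Tgfbi, an adhesion protein induced by TGF-beta, was called in every fit that leaves out 1 array (−2.0018 (SE 0.29, adjusted p = 0.00131)).

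Of 34 measured immediate early genes 7 rose and 1 fell (2 and 5 rose and 0 and 0 fell in the fits without undifferentiated replicate 1 and 2). Egr2, a zinc finger factor, lay at dim values of 4.30 and 4.18 and at 8.49, 8.51, 8.86 and 9.51 and rose by 4.60 (SE 0.27, adjusted p = 1.15e-05). Ccn2, a matrix protein known as CTGF, rose by 1.91 (SE 0.26, adjusted p = 0.000873). Of 57 measured ephrins, semaphorins, netrins and neurotrophins 4 rose and 3 fell (4 and 2 rose and 1 and 1 fell in the fits without undifferentiated replicate 1 and 2). The ephrins Efna3 and Efnb2, membrane ligands that signal between touching cells, rose by 2.55 (SE 0.24, adjusted p = 0.000127) and 1.51 (SE 0.24, adjusted p = 0.00219). The shares of the ephrin list were 7.02% that rose and 5.26% that fell, against 6.64% and 9.13% of all genes.

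Calcium pumps were among the calcium handling genes that rose. The shares of the calcium handling list were 10% that rose and 8.33% that fell, against 6.64% and 9.13% of all genes. Of 60 measured genes of calcium sensing, stores and effectors 6 rose and 5 fell (5 and 5 rose and 1 and 2 fell in the fits without undifferentiated replicate 1 and 2). The Golgi calcium pump Atp2c2 lay at 5.89 and 6.35 and 9.02, 8.82, 8.17 and 8.91 and rose by 2.61 (SE 0.26, adjusted p = 0.000164), and the plasma membrane pump Atp2b1 rose by 1.03 (SE 0.17, adjusted p = 0.00211). The calcium-sensing receptor Casr was dim in 5 of 6 arrays and had a log2 fold change of 0.02 (SE 0.10, adjusted p = 0.95). The kinase Prkcd (−0.03 (SE 0.12, adjusted p = 0.952)) and the calmodulin-like genes Calml3 and Calm4 (−0.56 and −0.22) did not pass, although Calml3 fell without undifferentiated replicate 1 (−1.24, adjusted p = 0.0285). Of 25 measured S100 proteins and annexins, which bind calcium, 8 rose and none fell (3 and 3 rose in the fits without undifferentiated replicate 1 and 2). Anxa9, an annexin of the upper epidermis, lay at 4.41 and 4.97 and 9.70, 9.36, 9.61 and 9.48 and rose by 4.85 (SE 0.15, adjusted p = 3.29e-07), with undifferentiated replicate 1 dim. S100a16 rose by 0.72 (SE 0.12, adjusted p = 0.00255). S100a8 and S100a9, which form calprotectin, had log2 fold changes of 1.82 (SE 0.65, adjusted p = 0.0978) and 1.87 (SE 0.66, adjusted p = 0.0911) that did not pass, and both rose in the fit of the 6 compared arrays alone.

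Single genes of ion and water transport changed, while most did not pass. Of 70 measured channels, pumps and water channels 12 rose and 5 fell (8 and 10 rose and 4 and 4 fell in the fits without undifferentiated replicate 1 and 2), and the median was 0.07. Gabrp, a subunit of an ionotropic GABA receptor found in epithelia, lay at 5.16 and 5.12 and 10.03, 9.34, 9.60 and 10.02 and rose by 4.61 (SE 0.20, adjusted p = 2.39e-06). The sodium-glucose transporter Slc5a1 rose by 2.35 (SE 0.29, adjusted p = 0.000454), the carbonic anhydrase Car2 by 2.31, and the intracellular chloride channel protein Clic3 by 1.67. The chloride channel Ano1 fell by 1.52 (SE 0.13, adjusted p = 8.61e-05). Aqp3, the water and glycerol channel of the basal epidermis, fell by 2.10 (SE 0.30, adjusted p = 0.00116), but its 4 probe sets disagreed, with log2 fold changes between −3.32 and 0.02.

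Cytokine genes gave some of the largest single changes. As a list 7.79% rose and 11.7% fell, against 6.64% and 9.13% of all genes. Of 77 measured cytokines, chemokines and their receptors 6 rose and 9 fell (3 and 4 rose and 7 and 6 fell in the fits without undifferentiated replicate 1 and 2). Tslp, an epithelial cytokine that acts on dendritic cells, lay at 11.48 and 11.53 in undifferentiated and 7.24, 7.79, 7.30 and 6.86 in differentiated arrays and fell by 4.21 (SE 0.54, adjusted p = 0.000575). Il15, a cytokine that maintains natural killer and memory T cells, lay at dim values of 4.44 and 3.92 and at 6.94, 6.35, 8.50 and 7.64 and rose by 3.18 (SE 0.54, adjusted p = 0.00284). Each of these genes was separated between the groups in all arrays. The scavenging chemokine receptor Ackr3 fell by 1.85 (SE 0.32, adjusted p = 0.00328) and the receptor Tnfrsf18 (GITR) by 1.73 (SE 0.21, adjusted p = 0.000472), while Tnfaip3 (A20), an inhibitor of NF-kappaB, rose by 1.13 (SE 0.17, adjusted p = 0.00127).

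Of 26 measured genes of the interleukin 1 family 5 rose and 2 fell (4 and 4 rose and 4 and 0 fell in the fits without undifferentiated replicate 1 and 2). The calls made in every fit that leaves out 1 array were those of receptor genes. Il18r1 and Il18rap, the subunits of the interleukin 18 receptor, both rose by 0.98 (adjusted p = 0.00227 and 0.00226), and Sigirr, an inhibitory receptor of the family, by 0.79 (SE 0.09, adjusted p = 0.000326). Il1rap, the shared coreceptor, rose by 1.29, but its 5 probe sets lay between −0.14 and 3.03. The ligands Il1a and Il33 and the antagonist Il1rn did not pass (−0.59, −0.19 and −0.39, adjusted p = 0.601, 0.813 and 0.176), although Il1rn fell without undifferentiated replicate 1 (−0.72, adjusted p = 0.0194). Of 36 measured antimicrobial and alarmin genes 7 rose and 1 fell (2 and 5 rose and 1 and 0 fell in the fits without undifferentiated replicate 1 and 2). The beta-defensins Defb4 and Defb6, small peptides that kill microbes, rose by 3.77 (SE 0.65, adjusted p = 0.00296) and 3.24 (SE 0.43, adjusted p = 0.000737), from 4.69 and 5.09 and from dim values of 4.33 and 4.66. Of 51 measured interferon response genes 4 rose (7.84%, against 6.64% of all genes), and none of these calls was made in every fit that leaves out 1 array.

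Genes linked to cell death rose more often than they fell. Of 53 measured genes of cell death and nuclear breakdown 14 rose and 2 fell (9 and 9 rose and 2 and 2 fell in the fits without undifferentiated replicate 1 and 2). Cidea, a lipid droplet protein related to DNA fragmentation factors, lay at 5.69 and 6.25 and 9.52, 9.43, 10.25 and 10.10 and rose by 3.85 (SE 0.44, adjusted p = 0.000326). Bcl2l11 (Bim), which starts apoptosis, rose by 1.21 (SE 0.18, adjusted p = 0.00134), and the nuclease Dnase1l1 rose by 1.11 (SE 0.16, adjusted p = 0.00124). Padi1, which turns arginine into citrulline in keratins, rose by 2.26 (SE 0.32, adjusted p = 0.00113) from dim values. Ripk3, the kinase of necroptosis, lay at 8.84 and 8.54 and 7.17, 7.39, 6.38 and 6.96 and fell by 1.72 (SE 0.25, adjusted p = 0.00126). Casp14, the caspase of cornification, did not pass (−0.09 (SE 0.20, adjusted p = 0.887)).

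Of 22 measured genes of the Ly6 and uPAR domain family, small proteins mostly held to the membrane by a lipid anchor, 5 rose and none fell (4 and 4 rose in the fits without undifferentiated replicate 1 and 2). Ly6g6c lay at 6.57 and 6.75 and 10.36, 9.95, 10.21 and 10.47 and rose by 3.59 (SE 0.14, adjusted p = 1.35e-06), Psca rose by 3.08 (SE 0.48, adjusted p = 0.00178) and Ly6g6e by 2.71. Of 69 measured genes of the matrix and its receptors 3 rose and 6 fell (3 and 2 rose and 2 and 4 fell in the fits without undifferentiated replicate 1 and 2). The shares of the matrix list were 4.35% that rose and 8.7% that fell, against 6.64% and 9.13% of all genes. The integrin Itgb8, which activates TGF-beta, rose by 2.57 (SE 0.30, adjusted p = 0.000357), and Ecm1, a matrix protein of the skin, by 1.92 (SE 0.27, adjusted p = 0.000947). Itga6 and Itgb4, which together anchor basal cells to the basement membrane, fell by 1.61 and 1.38, calls that ended without undifferentiated replicate 1 (−1.52, adjusted p = 0.0893 and −1.12, adjusted p = 0.204) or 2 (−1.71, adjusted p = 0.0508 and −1.64, adjusted p = 0.053).

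Some enzymes of DNA methylation and chromatin fell. Of 58 measured genes 16 fell and 3 rose, with a median of −0.21 (2 and 1 rose and 8 and 9 fell in the fits without undifferentiated replicate 1 and 2). Uhrf1, which brings the maintenance methyltransferase to replicated DNA, lay at 8.61 and 8.18 and 6.34, 6.18, 4.75 and 5.90 and fell by 2.60 (SE 0.42, adjusted p = 0.00223). Ezh2, the methyltransferase of Polycomb, fell by 1.47 (SE 0.19, adjusted p = 0.000636), and Hmgb2, a protein that bends DNA, by 1.65 (SE 0.15, adjusted p = 9.88e-05). Dnmt1, the maintenance methyltransferase, fell by 1.31, which ended without undifferentiated replicate 1 or 2 (−1.17 without undifferentiated replicate 1, adjusted p = 0.161, and −1.45 without undifferentiated replicate 2, adjusted p = 0.0713). Several of these genes are expressed mainly in S phase, and genes of cell division fell in the same arrays. The part of that fall in this list was not tested.

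Further large changes were those of single genes. Calcb, a neuropeptide of the calcitonin family, rose by 4.57 (SE 0.35, adjusted p = 4.86e-05) from dim values of 3.38 and 3.61 to 8.42, 8.71, 7.09 and 8.03. Profilin 2 (Pfn2), which binds actin monomers, lay at 7.02 and 6.90 and 11.15, 11.06, 11.31 and 10.86 and rose by 4.14 (SE 0.13, adjusted p = 3.29e-07). The secreted ribonuclease Rnase1 rose by 3.89 (SE 0.18, adjusted p = 2.52e-06). The falls included the neuronal tubulin Tubb3, at 9.59 and 9.18 and 6.39, 6.40, 6.05 and 6.47 and fell by 3.06 (SE 0.18, adjusted p = 1.21e-05). The carboxylesterase Ces2g fell by 2.47 (SE 0.24, adjusted p = 0.000147) and the aldehyde oxidase Aox4 by 2.61 (SE 0.28, adjusted p = 0.000217), to dim values of 3.87, 3.90, 3.89 and 3.94. These genes were chosen among those without overlap between the groups, so their separation is not a result.

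Promoters were searched for the core motifs of factors known from the epidermis. RefSeq promoters (build GRCm38.p6, 300 bases that end 50 bases after the start) were given for 14369 of the 18194 genes, 18010 in all, and both strands were searched, with each motif counted separately. The AP-1 motif TGACTCA was found in 6.34% of 1198 promoters of genes that rose, 3.11% of 1674 promoters of genes that fell and 4.52% of all. The CREB motif TGACGTCA was found in 2.17%, 2.87% and 2.50%, the C/EBP motif TTGCGCAA in 0.25%, 0.538% and 0.239% and the grainyhead-like motif AACCGGTT in 0.0835%, 0.299% and 0.20%. These shares are a description and were not tested. Matches were then listed for the 24 largest rises and the 24 largest falls. Promoters on 1 chromosome were left out of this listing, and genes without a given promoter could not be searched. Outside cell division the listing held Stfa3 and Aox4, and their promoters are shown for that reason, with the AP-1 letters in capitals. The promoter of Stfa3 lies at chr16:36455343-36455642 on the minus strand and that of Aox4 at chr1:58210147-58210446 on the plus strand, and both are written 5′ to 3′.
Stfa3: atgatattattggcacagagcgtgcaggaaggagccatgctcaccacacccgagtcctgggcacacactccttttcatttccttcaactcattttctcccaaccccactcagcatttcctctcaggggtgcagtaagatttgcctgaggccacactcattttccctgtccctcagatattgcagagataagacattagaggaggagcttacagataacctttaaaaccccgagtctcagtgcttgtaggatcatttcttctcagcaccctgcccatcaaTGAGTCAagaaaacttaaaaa
Aox4: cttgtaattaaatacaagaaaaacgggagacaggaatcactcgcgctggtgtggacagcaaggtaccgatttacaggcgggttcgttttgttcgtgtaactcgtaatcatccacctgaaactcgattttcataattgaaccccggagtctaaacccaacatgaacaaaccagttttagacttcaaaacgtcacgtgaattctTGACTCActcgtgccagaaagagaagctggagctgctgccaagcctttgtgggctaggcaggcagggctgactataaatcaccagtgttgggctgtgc
The first base of the match lies 30 bases after the start of Stfa3, counted from 1 at the start, and 48 bases before the start of Aox4.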

How the data were processed

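The authors measured mRNA on Affymetrix mouse expression arrays and deposited log2 values per probe set, for which the submitters' notes name Affymetrix Expression Console and RMA (their versions are not given in the sources used here). RMA corrects the background and normalizes the arrays to each other, so values carry no depth, and the number of arrays limits the precision. Of 45101 probe sets, 34958 carry 1 gene symbol and were averaged into 18194 genes, 9012 of which have several probe sets. Probe sets of 1 gene could disagree, which the SE of the averaged value does not show. Besides the cases given above, log2 fold changes ranged from 0.24 to 1.86 for Adamts5 and from −0.95 to −0.13 for Hspa5. For Hmgb2 they ranged from −2.22 to −0.55 and for Bcl2l11 from 0.45 to 1.72. The values were not normalized again.

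The members and gene lists were chosen with earlier results of these data known. All 10 arrays entered 1 fit in limma 3.58.1 (R 4.3.3) with a mean per group and 6 residual degrees of freedom, and two-sided p-values received a Benjamini-Hochberg adjustment over 18194 genes. Lists were described by counts and medians and not tested. Older symbols of list members were matched through RefSeq synonyms. The named genes are, per list, up to 6 members with the smallest adjusted p and the largest rise and fall, then the 24 largest rises and falls without overlap, and anchor genes listed by hand. Named after their values were seen were Ackr3, Atoh1, Klk7, Klk11, Klk13, Krt20, Muc15, Prom1, Prss8, Rarb, Rbp2, S100a14, Slc38a1, Slc38a2, Slc38a4, Slc5a1, Sox2, Spink5, Spint1, Srm and Stra6. On simulated data with the spreads of the real genes the fit recovered 75 of 100 genes changed by 1 and 99 of 100 changed by 2 on the log2 scale, with 8 false calls. The alternatives were other scaling, probe set choice, a filter on dim genes, an intensity trend, the compared arrays alone, a replicate block, a t-test per gene, other thresholds and omission of each array. Transgenic and drug-treated arrays entered only the estimate of the spread. Figures were drawn with matplotlib 3.10.9.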

Additional observations from a re-analysis of the deposited data

Results flagged for a closer look

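In 10 genes named above, 1 of the 4 differentiated arrays lay farther from the other arrays than Dixon's 95% limit allows. Chance flags about 1 in 20 such groups, and 201 genes were examined. Differentiated replicate 2 held the lowest value of Aloxe3 (6.08, highest 6.37), Atoh1 (4.34, highest 4.83), Efnb2 (8.18, highest 8.74), Krt16 (12.29, highest 12.71) and Prss8 (8.07, highest 8.24) and the highest of Abca12 (5.70, lowest 4.72). Differentiated replicate 3 held the lowest value of Dnmt1 (6.06, highest 7.07) and the highest of Krt20 (4.14, lowest 3.77) and Rnase1 (9.01, lowest 8.48). Differentiated replicate 4 held the highest value of Foxq1 (6.90, lowest 6.26).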

How the results depend on the processing

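The counts of 1208 genes that rose and 1662 that fell stayed within 1.5 times under both scalings (median centring, quantile), with 1 bright probe set per gene, without ambiguous probe sets, without the dimmest 40% of genes, with an intensity trend, in the compared arrays alone and with a replicate block. The t-test per gene after Benjamini-Hochberg adjustment called 376 and 488. It ended 68 of the calls of genes named here, those of Abcc4, Acer1, Ackr3, Acta1, Adamts5, Alox12b, Aox4, Atp2b1, Atp6v0b, Car2, Ccn2, Cdkn1a, Creld2, Cstb, Dll1, Dnase1l1, Dnmt1, Ecm1, Ezh2, Foxn1, Gabarap, Gabarapl1, Gabarapl2, Hopx, Il15, Il18r1, Il18rap, Itga6, Itgb4, Jag2, Klk13, Klk7, Krt16, Krt19, Krt5, Krt79, Krt80, Map1lc3a, Mmp9, Notch1, Notch3, Nupr1, Padi1, Pdia6, Plin2, Prom1, Psca, Rarb, Rbp2, Ripk3, S100a1, S100a13, S100a14, S100a16, Serpinb5, Slc27a4, Slc2a3, Slc38a1, Slc38a4, Spink5, Spint1, Srm, Stfa2l1, Tnfaip3, Uhrf1, Vdr, Wnt4 and Zfp750. An adjusted p with a change of more than 1 called 492 and 466. Leaving out each array in turn gave 665 to 1452 that rose and 770 to 1545 that fell, with the lowest counts without undifferentiated replicate 1. The replicate block gave 1203 and 2032. The labels state no shared culture, so the numbers were not taken as pairs. The deviations correlated at 0.42 between replicates 1 and at 0.31 between replicates 2 of the groups, but with 2 undifferentiated arrays the deviations of one mirror those of the other, and replicates 3 and 4 have no partner, so that these values do not settle a pairing. Under the block the call of Zfp750 ended (0.68) and Ovol1 fell (−0.61).

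The genes that changed sign were not called, and most lay near 0, except Abca12 (−0.63) and Calml3 (−0.56). Leaving out each array gave −1.36 to 0.0947 for Abca12, −0.066 to 0.14 for Atoh1, −0.75 to 0.31 for Calm4, −1.24 to 0.12 for Calml3, −0.40 to 0.22 for Casp14, −0.0133 to 0.0587 for Casr, −0.0143 to 0.094 for Cyp24a1, −0.18 to 0.0987 for Hbegf, −0.35 to 0.0345 for Il33, −0.18 to 0.14 for Klf4, −0.14 to 0.20 for Krt20 and −0.0806 to 0.0624 for Prkcd. The brightest probe set gave 0.10 for Casp14 and −0.0075 for Cyp24a1, omission of ambiguous probe sets 0.10 for Casp14, median centring 0.0187 for Klf4 and 0.0122 for Prkcd, and the replicate block −0.0461 for Atoh1, 0.0911 for Hbegf, 0.0746 for Il33 and −0.0688 for Krt20. The cause was not tested. With 2 undifferentiated arrays, many calls end when 1 of them is left out. Such a fit also estimates that group from 1 array only. Dim values limit the fold changes marked so in the text. The same holds for Acer1 (dim in differentiated replicates 2, 3 and 4) and Nrg1 (dim in differentiated replicate 3). It also holds for Car2 and Rnase1 (dim in undifferentiated replicate 1) and Slc2a3 (dim in undifferentiated replicate 2).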

Other observations

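Further gene lists were read in the same way. Of 21 measured genes of the circadian clock 1 rose (4.76%) and none fell, against 6.64% and 9.13% of all genes. This was Bhlhe40, a repressor in the clock, which rose by 1.83 (SE 0.18, adjusted p = 0.000157). Of 42 measured p53 targets 6 rose and 3 fell (3 and 2 rose and 2 and 4 fell in the fits without undifferentiated replicate 1 and 2), shares of 14.3% and 7.14% against 6.64% and 9.13% of all genes. Cdkn1a (p21), which stops the cell cycle, rose by 0.92 (SE 0.13, adjusted p = 0.00109). Of 73 measured genes of actin, myosin, tubulin and their regulators 11 rose and 6 fell (6 and 7 rose and 3 and 3 fell in the fits without undifferentiated replicate 1 and 2), shares of 15.1% and 8.22%. Myo5b, a motor of vesicle recycling in polarized epithelia, rose by 1.88 (SE 0.15, adjusted p = 4.86e-05) from dim values of 4.33 and 4.24, while the related Myo5a fell by 1.45 (SE 0.19, adjusted p = 0.000701). The 3 probe sets of Myo5b had log2 fold changes between 0.49 and 3.82.

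Some genes that were called the same way are neighbours among the measured genes. Along the genome there were 7 runs of 4 or more neighbouring genes with the same call. The longest run, of 5 genes that fell, held Csta1, Stfa2l1 and Stfa3. A run of 4 that fell held the amino acid transporters Slc38a1, Slc38a2 and Slc38a4, with log2 fold changes of −0.65, −0.73 and −1.68. The call of Slc38a1 ended without undifferentiated replicate 1 or 2 (−0.64 without undifferentiated replicate 1, adjusted p = 0.0628, and −0.65 without undifferentiated replicate 2, adjusted p = 0.0501), and that of Slc38a4 without undifferentiated replicate 1 or differentiated replicate 4 (−1.17 without undifferentiated replicate 1, adjusted p = 0.283, and −1.68 without differentiated replicate 4, adjusted p = 0.0567) and with the brightest probe set (−1.20, adjusted p = 0.0774). A run of 4 that rose held S100a1, S100a13, S100a14 and S100a16, of which the first 3 (0.79, 0.62 and 0.56) were not called without undifferentiated replicate 1 (0.69, adjusted p = 0.0787 for S100a1, 0.65, adjusted p = 0.0774 for S100a13 and 0.57, adjusted p = 0.106 for S100a14), nor the latter pair without undifferentiated replicate 2 (0.59, adjusted p = 0.0964 and 0.55, adjusted p = 0.105). The runs described are those that hold several genes of 1 family, and the other runs, all of genes that fell, are not detailed. No number of runs expected by chance was computed, and runs were not tested.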
